A study of Mus musculus with 6 samples.

Results

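The tumour necrosis factor (TNF) superfamily was followed in Msc80, a mouse Schwann cell line, in control cultures and in cultures edited in the transcription factor gene Sox10. Members were taken by gene symbol, as the genes named Tnfsf or Tnfrsf with a number, together with Tnf, Lta, Ltb, Ltbr, Cd40, Cd40lg, Cd27, Cd70, Edar and Relt. This gave 41 of the 54109 genes in the count tables: 16 ligands, 4 receptors with a death domain, 3 decoy receptors, 17 other receptors and 1 antisense transcript, Tnfsf13os. RNA was sequenced from 3 control cultures, whose genotype is labelled Sox10 wt, and from 3 Sox10ko cultures, in which CRISPR/Cas9 editing was used to prevent Sox10 expression. All 6 were grown in DMEM with 10% fetal calf serum and antibiotics, and no cytokine is named among the additions. The labels mention a clone for the edited cells but not how many clones there were, so loss of Sox10 and a difference between clones cannot be told apart.

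TNF superfamily ligands are mostly trimers held at the cell surface or shed from it, and they act on receptors built from cysteine-rich repeats. Receptors with a death domain can recruit adaptors that lead to caspase activation, other receptors bind TRAF proteins and activate NF-kB, and decoy receptors bind ligand without passing on a full signal. In peripheral nerve, TNF is known as a cytokine of the response to injury, and Ngfr (p75NTR), a relative outside the symbol rule, is a classical marker of immature and injured Schwann cells.

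The unit of level is CPM, a read count scaled for the size of its library with TMM factors, with means ± SD over n = 3 per group. Fold changes are Sox10ko over control, with the log2 value ± SE from edgeR's quasi-likelihood fit, and a gene was called where the Benjamini-Hochberg adjusted p over the 15427 tested genes was under 0.05. Libraries held 32328618 to 41834431 counted reads, so that 1 read was worth 0.0239 to 0.0309 CPM. Sox10 RNA lay at 606 to 627 CPM in control and at 67.4 to 116 CPM in Sox10ko, 6.95-fold lower but still clearly present, and the counts per gene cannot show whether this RNA is functional. The summed level of 9 Schwann cell markers, Sox10 and Ngfr included, was 4688 to 5274 CPM in control and 110 to 161 CPM in Sox10ko, and all 9 were called lower. Among all tested genes 32.0% were called, 17.3% higher and 14.7% lower in Sox10ko, and their median log2 fold change was 0.02. Shares of the members and gene lists are set beside these as a description, since both were chosen with earlier results of these data known.

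Receptors, rather than ligands, made up most of the measurable superfamily in this line. Of the 41 members, 5 had no read in any library (Cd40lg, Tnfsf11, Tnfsf14, Tnfsf15 and Tnfrsf13b), and a further 16 had between 1 and 50 reads over all 6 libraries. No read in 233357118 counted allows a level of up to 0.0129 CPM, which covers counting error only. There were 19 members with enough reads to be tested, among them 3 of 16 ligands and 16 of 24 receptors. Of these 19, 8 were called (42.1%, against 32.0% of all tested genes), 7 higher and 1 lower in Sox10ko. The number fell to 5 of 21 tested without control replicate 1, where the calls over all genes fell from 4939 to 3471. It was 4 of 7 tested when genes under a mean of 5 CPM were left out. The highest number over the alternatives was 10 of 19, by DESeq2. In 10 of the 19 the control and Sox10ko values did not overlap, against 49.3% of all tested genes. The filter on low values was passed through Sox10ko alone by Tnfrsf26 and Tnfrsf9, and through control alone by Tnfrsf19.

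**Figure D1:**
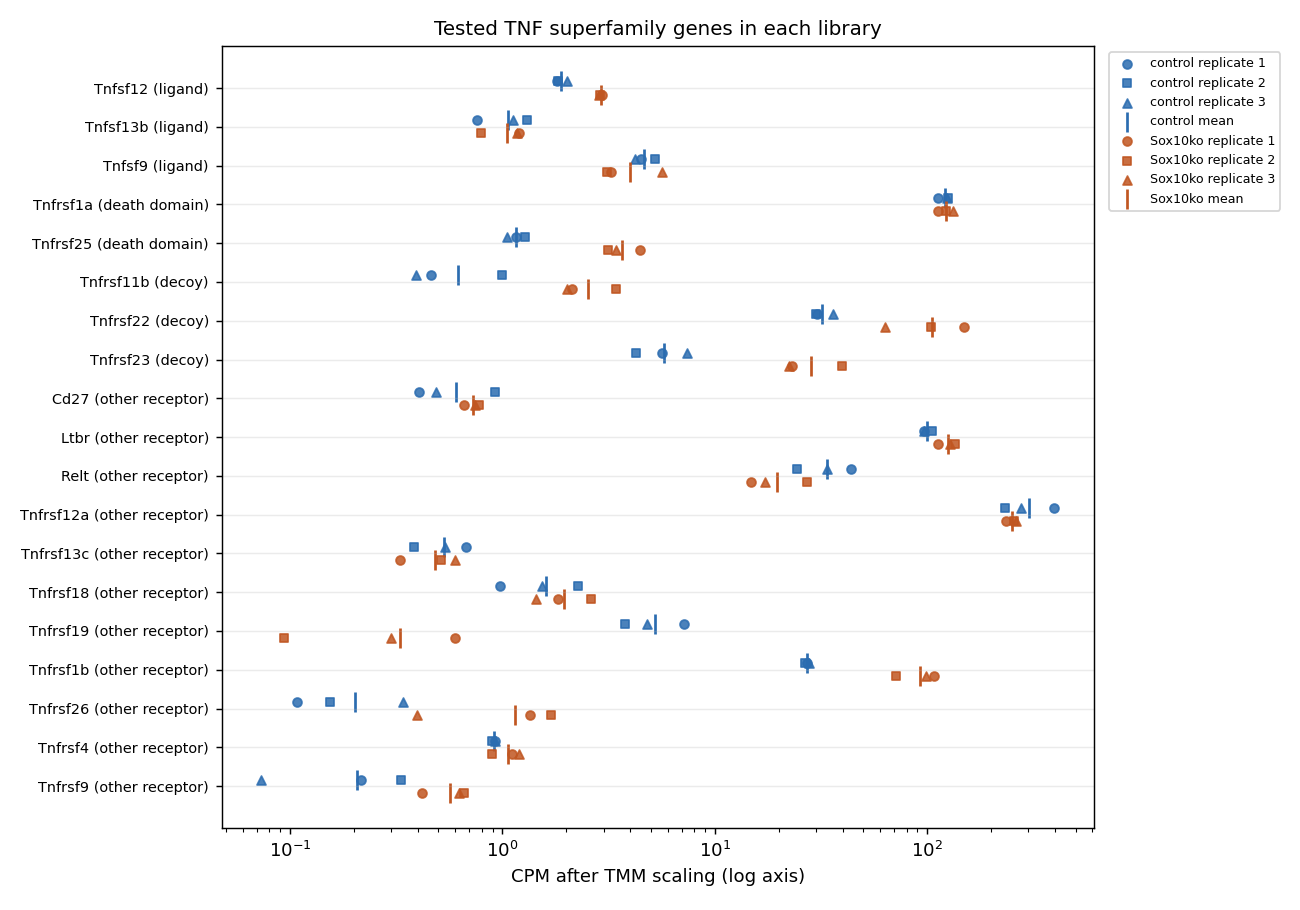
CPM on a log axis for each of the 19 tested members in each library, with control in blue, Sox10ko in orange, marker shapes for replicates and a vertical bar at each group's mean. Tnfrsf12a, Tnfrsf1a and Ltbr lie highest in control, and Tnfrsf1b, Tnfrsf22, Tnfrsf23, Tnfrsf25 and Tnfrsf11b lie higher in all Sox10ko libraries than in any control library, while Tnfrsf19 lies lower.

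Per length of exon, Tnfrsf12a was the most abundant member in both groups, with a level of 157 CPM per kilobase in control and 130 in Sox10ko. Tnfrsf1a and Ltbr came next at levels of 46.7 and 42.2 CPM per kilobase in control, and Relt followed at 10.4. Tnfrsf22 and Tnfrsf1b stood at levels of 7.63 and 7.14 CPM per kilobase in control and at 25.1 and 24.3 in Sox10ko, above Relt, which had 6.02 there. The highest ligand, Tnfsf9, had a level of 3.6 CPM per kilobase in control and 3.1 in Sox10ko.

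The decoy receptors were all 3 called higher in Sox10ko, against 17.3% of all tested genes, though 2 of them share sequence and are not separate observations. Tnfrsf22 and Tnfrsf23 are mouse decoy receptors for the ligand TRAIL, which Tnfsf10 encodes, and lie beside Tnfrsf26 on the minus strand of chromosome 7 (GRCm38): Tnfrsf26 at 143607659-143628722, Tnfrsf22 at 143634806-143649661 and Tnfrsf23 at 143665809-143685872. Reads can be misplaced between alike genes of the cluster. The following 60-base stretches of coding sequence were picked as the ungapped window where Tnfrsf22 and Tnfrsf23 match best, so they are not typical of the genes. They were read from GENCODE M21 on GRCm38, minus strand, 5′ to 3′, and capitals mark the positions at which the 3 genes are not all the same.
Tnfrsf22 (chr7:143643345-143643404): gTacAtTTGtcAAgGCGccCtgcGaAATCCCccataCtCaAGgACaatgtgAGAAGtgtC
Tnfrsf23 (chr7:143680014-143680073): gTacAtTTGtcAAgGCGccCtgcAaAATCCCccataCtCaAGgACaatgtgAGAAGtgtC
Tnfrsf26 (chr7:143618379-143618438): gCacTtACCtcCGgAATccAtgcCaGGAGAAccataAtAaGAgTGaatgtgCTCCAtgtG

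In this picked window Tnfrsf22 and Tnfrsf23 shared 59 of 60 bases, and Tnfrsf26 shared 30 of 60 with both. Over the coding sequence, Tnfrsf22 and Tnfrsf23 were identical at 90.6% of 531 aligned bases, and Tnfrsf26 was identical to them at 62.5% and 61.1%. Of the 50-base stretches of Tnfrsf22 and Tnfrsf23, 719 (of 4147 and of 3993) were the same in both genes, and 1137 of those of Tnfrsf22 (27.4%) were found in any of 18 other genes. Tnfrsf26 shared no such stretch with another gene. The level of Tnfrsf22 and the split of reads between Tnfrsf22 and Tnfrsf23 are uncertain for that reason.

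For Tnfrsf22 the control libraries gave 30.2, 30.1 and 36.2 CPM (replicates 1 to 3, the order used throughout) and the Sox10ko libraries 150, 104 and 63.1 CPM. The groups did not overlap, and the Sox10ko libraries spread more widely than the controls. The mean rose 3.29-fold, from 32.2 ± 3.51 to 106 ± 43.6 CPM (log2 1.72 ± 0.29, edgeR adjusted p = 0.0047). In these bulk cultures the number of cells that express a gene and the RNA per cell cannot be told apart. The level of Tnfrsf23 was 5.63, 4.25 and 7.42 CPM in control and at 23.1, 39.8 and 22.3 CPM in Sox10ko. Every Sox10ko library exceeded every control library, and Sox10ko replicate 2, not replicate 1, was the highest. This rise was 4.93-fold, from 5.77 ± 1.59 to 28.4 ± 9.89 CPM (log2 2.30 ± 0.30, edgeR adjusted p = 0.00162). Both calls were kept under all 14 alternative settings.

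Tnfrsf26, the neighbour in the cluster and counted here among the other receptors, was rare in control, at 0.108, 0.154 and 0.342 CPM, and reached 1.35, 1.69 and 0.398 CPM in Sox10ko. Sox10ko replicate 3 lay close to control replicate 3, though the groups did not overlap. It rose 5.69-fold (log2 2.48 ± 0.65, edgeR adjusted p = 0.0249). The fold was 8.74 without control replicate 3. The call was lost without control replicate 1 or 2, or without Sox10ko replicate 1 or 2, and the adjusted p ran from 0.00449 to 0.0876 over the alternatives.

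The third decoy, Tnfrsf11b, encodes osteoprotegerin, a secreted receptor that captures RANKL (Tnfsf11). It lies on chromosome 15 at 54250619-54278484. Its level was 0.461, 0.998 and 0.390 CPM in control and 2.13, 3.42 and 2.02 CPM in Sox10ko, with no overlap. The mean rose 4.09-fold, from 0.616 ± 0.333 to 2.52 ± 0.783 CPM (log2 2.03 ± 0.43, edgeR adjusted p = 0.0113). Without control replicate 1 the adjusted p was 0.0502 and without control replicate 3 it was 0.0541, which end the call, and over all alternatives it ran from 0.000205 to 0.0541. Its ligand gene Tnfsf11 had no reads, and Tnfrsf11a, the signalling receptor for RANKL, had 1 read in control and 2 in Sox10ko.

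Of the 4 death domain receptors, 2 were tested and they differed in outcome. Tnfrsf25 (death receptor 3, whose ligand is encoded by Tnfsf15) lies on the plus strand of chromosome 4 at 152115934-152120119. Its controls gave 1.16, 1.28 and 1.05 CPM and its Sox10ko libraries 4.46, 3.14 and 3.41 CPM. The controls were tightly grouped and all Sox10ko libraries lay above them. The mean rose 3.15-fold, from 1.16 ± 0.115 to 3.67 ± 0.696 CPM (log2 1.65 ± 0.24, edgeR adjusted p = 0.00249), a call kept in all 13 alternatives that tested the gene. Tnfsf15 had no reads in either group.

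Tnfrsf1a (TNF receptor 1), the main death domain receptor for TNF, was far more abundant and gave no call. Its levels were 113, 126 and 124 CPM in control and 112, 123 and 132 CPM in Sox10ko, and the ranges overlapped almost entirely. The means were 121 ± 7.19 and 122 ± 10.2 CPM (log2 0.01 ± 0.10, edgeR adjusted p = 0.935), and the sign of this difference turned in 4 of 14 alternatives. The gene lies at 125349362-125362484 on chromosome 6, near Ltbr.

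Edar, the receptor for ectodysplasin in skin appendages, had no reads in any control library and 8, 6 and 10 reads in the Sox10ko libraries. Set against 3 counts for all controls together, its level was at least 8.05-fold higher, or at least 5.23-fold without control replicate 3 and 5.36-fold without control replicate 2. It was too rare for the test, and with no filter on low counts its edgeR adjusted p was 0.00461. Tnfrsf21 (death receptor 6) had 3 reads, all in Sox10ko replicate 2.

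**Figure D2:**
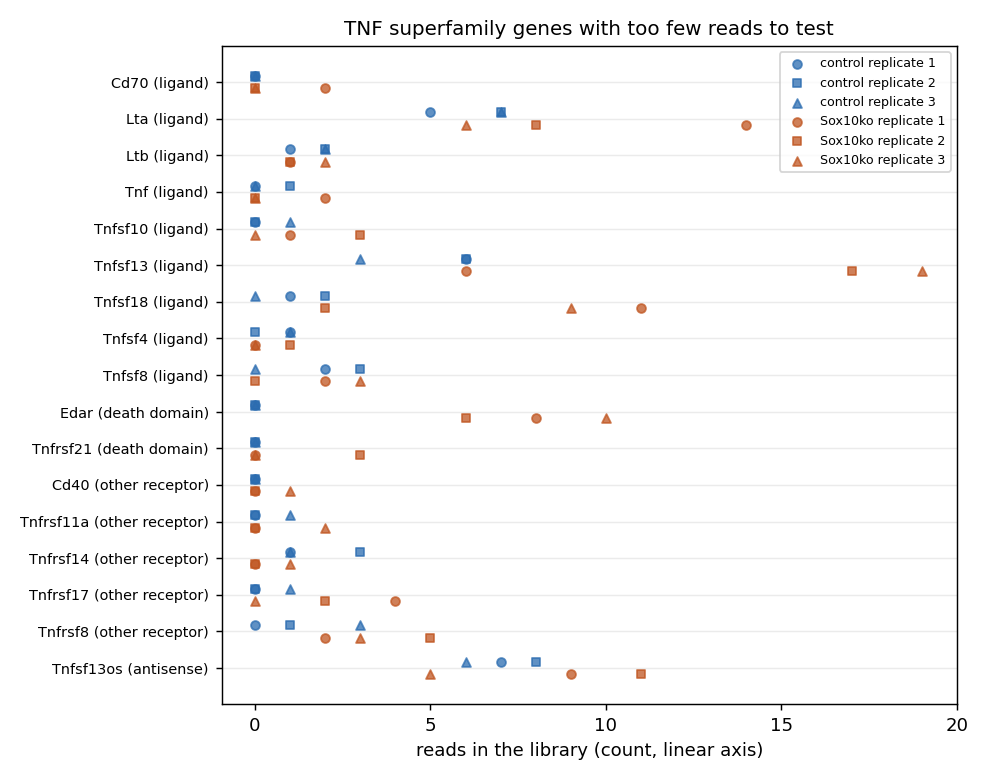
Reads per library, on a linear axis, for members that had reads but were too rare to be tested, with control in blue and Sox10ko in orange. No library holds more than 19 reads of any of them, and Edar has reads in the 3 Sox10ko libraries and in none of the controls.

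Among the other receptors, 11 of 17 were tested, 3 were called higher and 1 lower (36.4%, close to the 32.0% of all tested genes), with a median log2 fold change of 0.26 over the 11. Tnfrsf1b (TNF receptor 2), which binds TNF and signals through TRAF proteins without a death domain, gave the lowest adjusted p of the tested members. The control level was 27.3, 26.7 and 27.9 CPM and the Sox10ko level 108, 71.7 and 99.1 CPM. The control libraries were nearly identical and the lowest Sox10ko library was well above them. The mean rose 3.41-fold, from 27.3 ± 0.595 to 92.9 ± 18.8 CPM (log2 1.77 ± 0.16, edgeR adjusted p = 0.000368), and the call was kept in all 14 alternatives. Whether its change differed from that of Tnfrsf1a was not tested.

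Tnfrsf19 (TROY), a receptor of the nervous system and of stem cells that can take the place of Ngfr in the Nogo receptor complex, was the single member called lower. Its reads were 265, 148 and 197 in control and 20, 4 and 12 in Sox10ko, which are 7.18, 3.79 and 4.81 CPM against 0.599, 0.0938 and 0.299 CPM. The groups were far apart and did not overlap. The mean was 15.9-fold lower in Sox10ko, going from 5.26 ± 1.74 to 0.330 ± 0.254 CPM (log2 -4.01 ± 0.59, edgeR adjusted p = 0.00258). Control was 26.8-fold higher when Sox10ko replicate 1 was left out, and the call was kept in all 13 alternatives that tested it. The gene spans 60963875-61046490 on the minus strand of chromosome 14.

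Ltbr, the receptor for membrane lymphotoxin and for LIGHT (Tnfsf14), was read at 96.5, 105 and 96.7 CPM in control and at 113, 136 and 128 CPM in Sox10ko. The groups did not overlap, but the gap between them was narrow. The rise of 1.27-fold, from 99.4 ± 4.88 to 126 ± 11.8 CPM, only just passed the threshold (log2 0.34 ± 0.10, edgeR adjusted p = 0.0397). It was lost without any single library other than Sox10ko replicate 1 and with no filter on low counts, with adjusted p from 0.0203 to 0.161 over the alternatives.

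Tnfrsf12a (Fn14, the receptor for TWEAK) had the highest counts of the members taken by symbol. Ngfr, outside the symbol rule, stood higher in control, at a mean of 2962 CPM. Tnfrsf12a gave no call. Its levels were 398, 234 and 278 CPM in control and 235, 256 and 261 CPM in Sox10ko (means 303 ± 85.1 and 251 ± 13.6 CPM, log2 -0.28 ± 0.19, edgeR adjusted p = 0.311). Control replicate 1 stood above the rest. Relt, which binds TRAF proteins, was read at 43.9, 24.3 and 33.6 CPM in control and at 14.8, 27.2 and 17.2 CPM in Sox10ko (means 34.0 ± 9.80 and 19.7 ± 6.56 CPM, log2 -0.78 ± 0.29, edgeR adjusted p = 0.0744). Sox10ko replicate 2 lay within the control range, and without it Relt was called lower (adjusted p = 0.0218), as it was with no filter and by DESeq2. Over the alternatives its adjusted p ran from 0.0218 to 0.209.

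The remaining tested receptors are known mainly from lymphocytes and lay below 3 CPM here. Tnfrsf9 (CD137) had 0.217, 0.333 and 0.0732 CPM in control and 0.419, 0.657 and 0.622 CPM in Sox10ko. These did not overlap, yet the gene missed the threshold (log2 1.45 ± 0.51, edgeR adjusted p = 0.067) and was not called in any of 13 alternatives. Tnfrsf18 (GITR) had 0.975, 2.28 and 1.54 CPM in control and 1.83, 2.6 and 1.44 CPM in Sox10ko (adjusted p = 0.593). Tnfrsf4 was near 1 CPM in all libraries, with 0.921, 0.896 and 0.927 CPM in control and 1.11, 0.891 and 1.20 CPM in Sox10ko (adjusted p = 0.544). Cd27 (log2 0.26 ± 0.37) and Tnfrsf13c, the BAFF receptor (log2 -0.14 ± 0.36), were below 1 CPM in every library and were not called.

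Some of these low values overlap other genes. The whole of Cd27 lies within Vamp1 on the other strand, with 1849 control and 1815 Sox10ko reads, and an antisense gene over Tnfrsf18, Gm16008, had 191 and 261. Tnfrsf9 overlaps Camta1 on the other strand. Reads of such partners cannot be told apart, since no source used here gives the strand setting of the counting.

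The other 6 receptors of this class were close to silent. Tnfrsf13b had no reads, Cd40 had a single read, in Sox10ko, and Tnfrsf14 (HVEM) had 5 in control and 1 in Sox10ko. Tnfrsf17 had 1 and 6 reads and Tnfrsf8 (CD30) had 4 and 10. Of 14 leukocyte markers, 8 had at most 10 reads over all libraries, and 3 of these 8 had none (Cd3e, Itgam and Tyrobp). Of the rest, 3 were tested: Lyz2 (0.837 to 10.7 CPM) and Cd68 (2.37 to 8.22 CPM) were called higher, and Csf1r had 4.16 CPM in control and 3.07 CPM in Sox10ko and was not called. Untested were Ptprc, with 1, 1 and 1 reads in control and 1, 20 and 9 in Sox10ko, Cd79a (10 and 24 in all) and Aif1 (5 and 11). The summed level of the 14 was 6.3 to 8.24 CPM in control and 19.6 to 27.7 CPM in Sox10ko, and their part in the receptor results was not tested.

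**Figure D3:**
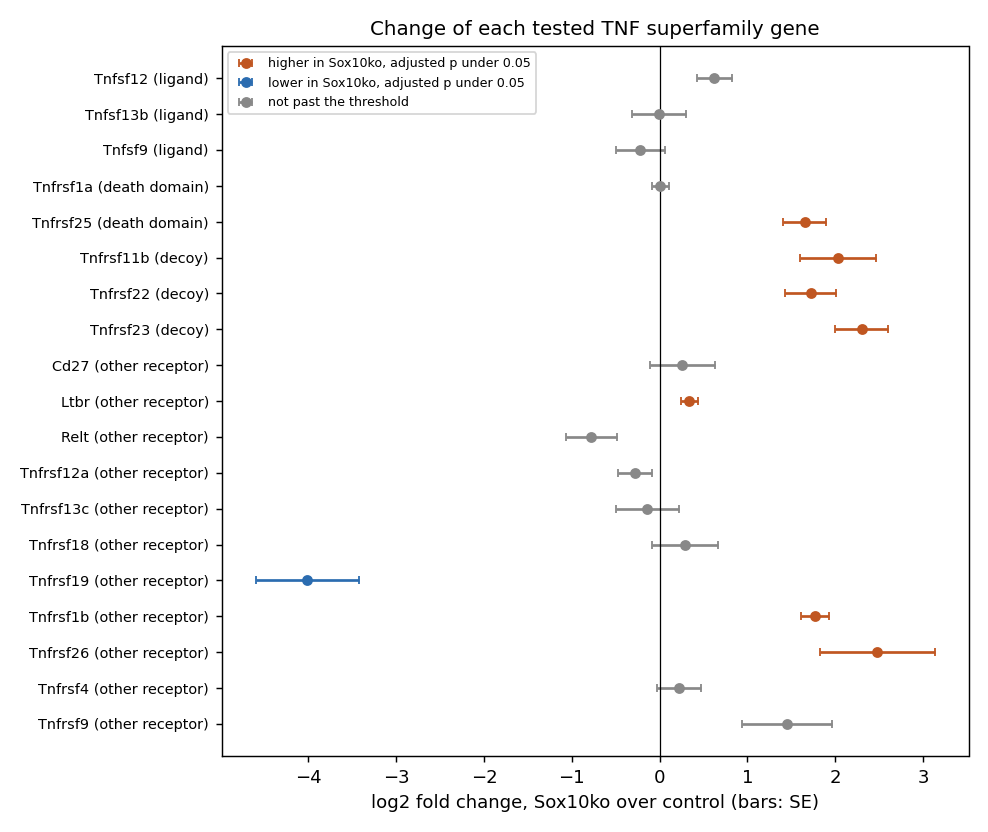
Log2 fold change (Sox10ko over control) ± SE of the tested members, grouped by role, from the edgeR fit, with orange for called higher, blue for called lower and grey for not called. The 3 decoy receptors lie between 1.72 and 2.30, Tnfrsf19 lies at -4.01, and the 3 tested ligands lie between -0.22 and 0.62.

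Ligands gave no call among the 3 tested (Tnfsf12, Tnfsf13b and Tnfsf9) by edgeR, with 1 at an unadjusted p under 0.05 and 1 called by DESeq2 and by limma-voom. That gene was Tnfsf12, which encodes TWEAK, the ligand of Tnfrsf12a. Controls gave 1.81, 1.82 and 2.02 CPM, and Sox10ko libraries 2.96, 2.88 and 2.86 CPM. The groups did not overlap, and the difference fell just short (log2 0.62 ± 0.20, edgeR adjusted p = 0.0504). It was 0.0327 by DESeq2, 0.0383 by limma-voom and 0.0401 with library size alone as the scaling, and the alternatives ran from 0.0327 to 0.211. Of its 1463 50-base stretches, 684 are also in Tnfsfm13, a readthrough transcript with Tnfsf13 that was counted at 13 reads in each group.

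Tnfsf9, the ligand of Tnfrsf9, was read at 4.50, 5.25 and 4.20 CPM in control and at 3.23, 3.12 and 5.63 CPM in Sox10ko (log2 -0.22 ± 0.28, edgeR adjusted p = 0.59). Sox10ko replicate 3 was the highest of all 6 libraries and the other two Sox10ko libraries were the lowest. Tnfsf13b, which encodes BAFF, was read at 0.758, 1.31 and 1.12 CPM in control and at 1.20, 0.797 and 1.17 CPM in Sox10ko (log2 -0.01 ± 0.31, edgeR adjusted p = 0.98).

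The other 13 ligands had at most 19 reads in any library, with 51 reads over the 3 controls and 110 over the 3 Sox10ko libraries in all. Tnf itself had 1 control read and 2 Sox10ko reads. The TRAIL gene Tnfsf10 had 1 and 4, so that the decoys Tnfrsf22 and Tnfrsf23 had 106 and 28.4 CPM in Sox10ko beside a ligand near the floor. Reads of Lta, one of the lymphotoxin genes, were 5, 7 and 7 in control against 14, 8 and 6 in Sox10ko, and its partner Ltb had 5 and 4 in all. Tnfsf13 (APRIL) had 6, 6 and 3 reads in control and 6, 17 and 19 in Sox10ko. All 2939 bases of its span lie within Tnfsfm13 on the same strand and within Tnfsf13os on the other, so its count is uncertain. Tnfsf13 passed the filter only when a library was left out, with edgeR adjusted p from 0.0373 (without Sox10ko replicate 1) to 0.231. With no filter on low counts its edgeR adjusted p was 0.139. Against the cutoff of 0.249 CPM for all libraries, only Sox10ko replicates 2 and 3 (0.399 and 0.473 CPM) were high enough. The lowest adjusted p thus came from leaving out the lowest Sox10ko library.

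Tnfsf18, the ligand of Tnfrsf18, had 1, 2 and 0 control reads against 11, 2 and 9 in Sox10ko, a ratio of 7.38 with an exact 95% counting interval of 2.22 to 38.5. The ratio was 14.7 without control replicate 2 and 4.79 without control replicate 3. The interval covers counting error only and not the spread between cultures. Tnfsf18 was too rare for the test, and with no filter on low counts its edgeR adjusted p was 0.0775, which is not a call. Cd70 had 2 reads, both in Sox10ko, Tnfsf4 had 2 in control and 1 in Sox10ko, and Tnfsf8 had 5 in both groups. The antisense transcript Tnfsf13os had 21 reads in control and 25 in Sox10ko.

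Promoter sequence was looked at for motifs of SOX factors (ACAAAG or ACAATG on either strand), of NF-kB (the kappaB motif, either strand) and for TATAAA, in the 250 bases before each RefSeq start (GRCm38.p6). The table held 35 windows for 31 of the 41 members, and none for Tnfrsf22, Tnfrsf26 or Tnfrsf11b. A SOX motif stood in 9 of the 35 windows, against 25.2% of all 32851 windows, a kappaB motif in 3 against 3.9%, and TATAAA in 4 against 7.59%. Of the called members, Tnfrsf25 alone had a SOX motif in a window, at its second start and not at its first. The tested members Cd27, Tnfrsf1a, Tnfrsf4 and Tnfrsf9, which were not called, had one too. The Tnfrsf25 window with the motif overlaps an exon of the gene, and the excerpt shows the motif in capitals (plus strand, 5′ to 3′).
Tnfrsf25 (chr4:152116161-152116190): tgtagccctggaACAAAGcctccggggagg
Tnfrsf1b and Tnfrsf19 are shown as receptors that changed in opposite directions and were called in every alternative that tested them. Their windows before the start (minus strand, 5′ to 3′) held none of these motifs. Tnfrsf19 had another window, at chr14:61037988-61038237, which held none of them either and is not shown.
Tnfrsf1b (chr4:145246871-145247120): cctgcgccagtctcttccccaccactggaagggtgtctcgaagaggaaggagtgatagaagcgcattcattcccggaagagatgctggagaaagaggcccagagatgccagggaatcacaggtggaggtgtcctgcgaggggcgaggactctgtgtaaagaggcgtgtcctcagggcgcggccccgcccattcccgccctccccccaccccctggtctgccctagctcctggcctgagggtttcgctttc
Tnfrsf19 (chr14:61046856-61047105): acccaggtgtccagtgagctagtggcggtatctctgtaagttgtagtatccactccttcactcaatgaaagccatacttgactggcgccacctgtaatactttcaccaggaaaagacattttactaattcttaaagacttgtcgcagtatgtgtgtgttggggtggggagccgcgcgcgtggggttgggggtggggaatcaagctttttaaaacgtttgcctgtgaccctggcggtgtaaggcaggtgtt
A match is only a description of these letters, and no match says nothing of the factor.

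Of 6 related genes outside the symbol rule, 5 were tested, 1 was called higher and 2 lower in Sox10ko (60%, against 32.0% of all tested genes). Fas, a death domain receptor, was read at 0.704, 0.435 and 0.585 CPM in control and at 7.18, 13.7 and 13.0 CPM in Sox10ko. All Sox10ko libraries lay far above the controls, a rise of 19.7-fold (log2 4.29 ± 0.35, edgeR adjusted p = 0.000244). Its ligand gene Fasl stayed rare, with 8 control reads and 6 Sox10ko reads. Ngfr, the neurotrophin receptor of Schwann cells, went the other way, from 2962 ± 272 to 16.4 ± 13.4 CPM, which is 181-fold lower (edgeR adjusted p = 0.00044), or 329-fold without Sox10ko replicate 1.

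In the ectodysplasin branch, the Edar adaptor gene Edaradd was 5.42-fold lower in Sox10ko, at 0.731, 0.998 and 1.29 CPM in control and 0.120, 0.164 and 0.274 CPM in Sox10ko (log2 -2.41 ± 0.41, edgeR adjusted p = 0.00465), beside the few Edar reads there. Edaradd passed the filter on low values through control alone. Eda2r, the receptor for the A2 isoform of ectodysplasin, had 12.3, 26.3 and 14.1 CPM in control and 56.5, 46.5 and 15.5 CPM in Sox10ko. Sox10ko replicate 3 lay within the control range, and Eda2r was not called (edgeR adjusted p = 0.11). It was called higher in 3 of 14 alternatives, without that library (0.0175), by DESeq2 (0.032) and with no filter on low counts (0.0453), and the adjusted p ran up to 0.283. The ligand gene Eda had 0.0813, 0.589 and 0.146 CPM in control and 0.0599, 2.93 and 1.42 CPM in Sox10ko (edgeR adjusted p = 0.146), and was called higher without Sox10ko replicate 1 (0.0269).

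Downstream, 38 of 42 listed genes of TNF and NF-kB signalling were tested, with 6 higher and 6 lower (31.6%, close to the 32.0% of all tested genes) and a median log2 fold change of -0.06. The number called was 7 without control replicate 1 and 6 without control replicate 3. With library size alone as the scaling the split was 8 higher and 4 lower, and with chromosome medians removed it was 8 and 5. Tnip1, a partner of the ubiquitin-editing enzyme A20, rose from 15.0 ± 1.33 to 33.3 ± 2.74 CPM (log2 1.15 ± 0.12, edgeR adjusted p = 0.0007). Tnfaip3, which encodes A20, rose from 7.18 ± 1.59 to 16.8 ± 2.40 CPM (log2 1.22 ± 0.21, edgeR adjusted p = 0.00449). Bid, which carries the death receptor signal to mitochondria, rose from 28.4 ± 9.31 to 97.9 ± 13.8 CPM (log2 1.78 ± 0.24, edgeR adjusted p = 0.00189).

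The genes that fell included Adam10, a protease that sheds surface proteins, which went from 1188, 1073 and 1295 CPM in control to 794, 664 and 692 CPM in Sox10ko (log2 -0.73 ± 0.12, edgeR adjusted p = 0.00398). The TAK1 adaptors Tab3 (log2 -0.58, adjusted p = 0.00481) and Tab2 (log2 -0.41, adjusted p = 0.0148) fell as well, and the Tab2 call was lost without control replicate 3. The adaptors Tradd, Fadd and Ripk1 and the TRAF genes other than Traf1 were tested and not called. Traf1 and Mlkl did not pass the filter on low values. Traf1 had no control reads and 1, 9 and 1 in Sox10ko, and Mlkl had 2, 7 and 11 in control and 1, 0 and 136 in Sox10ko, nearly all from replicate 3.

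**Figure D4:**
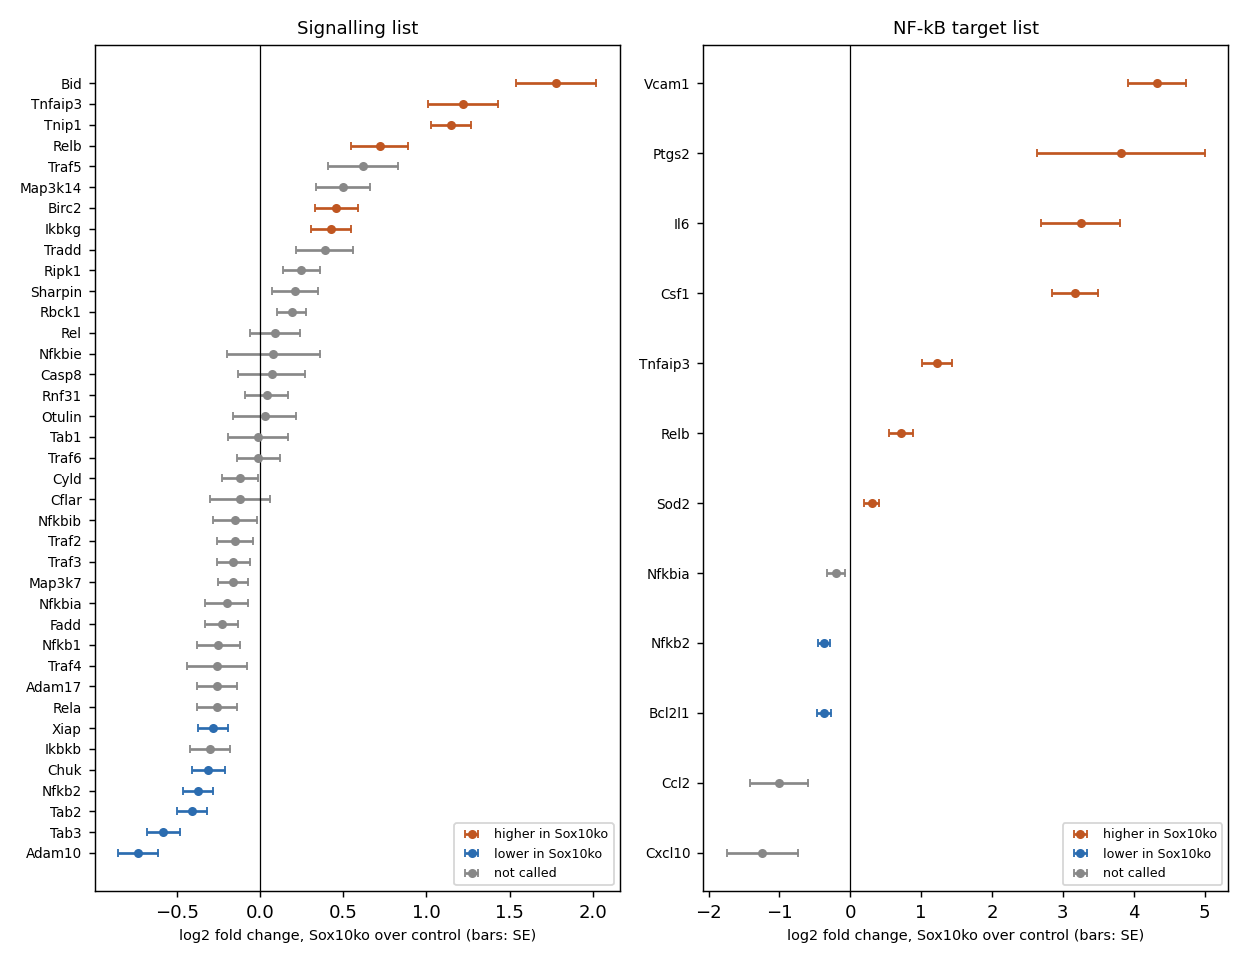
Log2 fold change (Sox10ko over control) ± SE of the tested signalling genes (left) and NF-kB target genes (right, on a wider axis), from the edgeR fit, with orange for called higher, blue for called lower and grey for not called. In the left panel Bid is highest at 1.78 and Adam10 lowest at -0.73, and in the right panel Vcam1 is highest at 4.33.

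Of 22 listed NF-kB target genes, 12 were tested, 7 were called higher and 2 lower (75%, against 32.0% of all tested genes), with a median log2 fold change of 0.51. The list was chosen with earlier results of these data known, so the 2 shares are a description and not a test. With no filter on low counts the split was 6 higher and 4 lower, and without control replicate 3 it was 4 and 0. Some genes stand in the signalling list too, the called Tnfaip3, Relb and Nfkb2 among them, so the counts of these lists are not separate. Vcam1, an adhesion molecule for leukocytes, rose 20.2-fold, from 0.515, 0.589 and 0.317 CPM to 6.05, 14.0 and 8.64 CPM (log2 4.33 ± 0.41, edgeR adjusted p = 0.000458). Csf1, a growth factor for macrophages, rose 8.99-fold, from 62.5, 48.8 and 42.0 CPM to 298, 669 and 411 CPM (log2 3.17 ± 0.32, edgeR adjusted p = 0.000571). In both, Sox10ko replicate 2 was the highest library. The cytokine gene Il6 rose 9.54-fold (edgeR adjusted p = 0.00481), but it passed the filter through Sox10ko alone. Ptgs2 and Sod2 were called higher close to the threshold (edgeR adjusted p = 0.0447 and 0.049). For Ptgs2, Sox10ko replicate 1, at 0.21 CPM, lay within the control range, and Sod2 rose only 1.23-fold. Chemokine genes of the list had lower values in Sox10ko. Ccl2 had 337 ± 123 CPM in control and 169 ± 84.3 CPM in Sox10ko (edgeR adjusted p = 0.106), and Cxcl10 had 1.61 ± 0.459 and 0.669 ± 0.477 CPM (edgeR adjusted p = 0.0983), neither called. Of the rarer ones, Cxcl5 had 18 reads in control against 1 in Sox10ko and Cxcl2 had 14 against 0, while Ccl5 had 2 against 15. The cytokine gene Csf2 had 19 against 2.

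Smaller differences within the target list depended on single libraries. The NF-kB subunit gene Relb was 1.64-fold higher in Sox10ko (edgeR adjusted p = 0.0183), and its call was lost without control replicate 1 or 3. The subunit gene Nfkb2 fell by 0.37 on the log2 scale (edgeR adjusted p = 0.0156), a call lost without control replicate 3 and with chromosome medians removed. Bcl2l1, which encodes the survival protein Bcl-xL, fell by 0.37 on the log2 scale (edgeR adjusted p = 0.028), a call lost with library size alone and without control replicate 2 or 3 or Sox10ko replicate 3. The list held no member of the superfamily, and several of its genes answer to other factors as well. Markers of other cell types also differed. Of 8 fibroblast markers, 5 were tested and 3 called higher, beside 17.3% of all tested genes. Their summed level was 461 to 586 CPM in control and 1110 to 2315 CPM in Sox10ko. Most of it was Col1a1, Pdgfrb and Col3a1 (means of 1085, 461 and 190 CPM in Sox10ko). Col3a1 and Pdgfra (0.734 and 0.847 CPM) were not called, and Dcn, Lum and Thy1 were too rare to be tested. Of 6 smooth muscle markers, all tested, 4 were called higher, at sums of 30.9 to 56.3 CPM against 156 to 730 CPM. Most of the Sox10ko sum was Acta2, with a mean of 357 CPM, and Tagln and Smtn were not called. Of 7 endothelial markers, 3 were tested, and Vwf was called higher, Cdh5 lower (means of 1.64 and 0.086 CPM) and Pecam1 not called. The endothelial sums were 3.51 to 4.66 CPM in control and 19.8 to 56.1 CPM in Sox10ko, where Vwf alone had 20.6, 19.0 and 55.5 CPM. Of 6 epithelial markers, 2 were tested, and both, Krt8 and Krt14, were called higher (sums 0.146 to 0.271 against 2.93 to 5.13 CPM). The part of all these markers in the results was not tested.

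**Figure D5:**
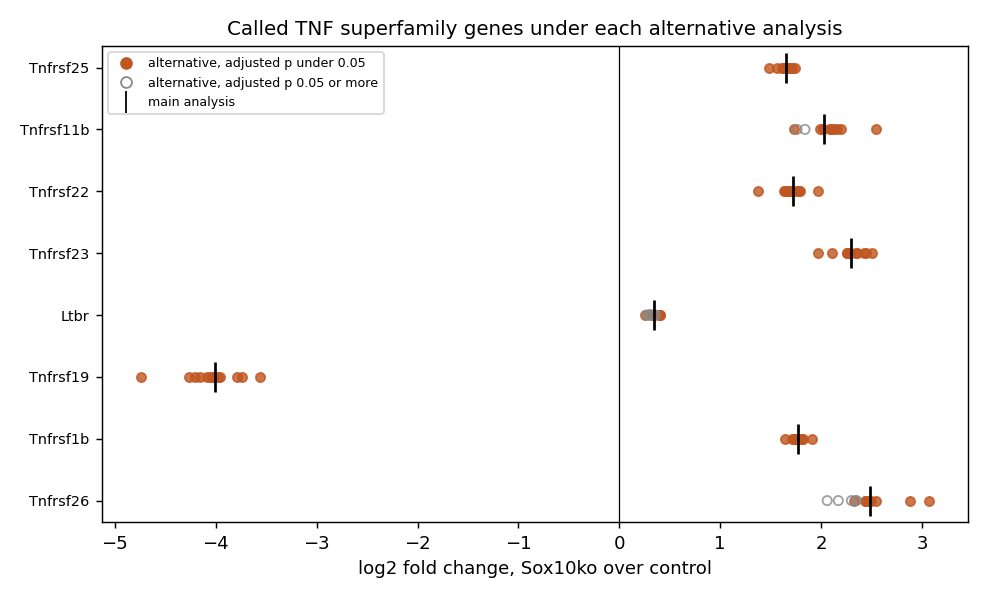
Log2 fold change (Sox10ko over control) of each called member in each alternative setting, with filled points where the adjusted p was under 0.05, open grey points where it was not, and a black bar at the reported value. Tnfrsf1b, Tnfrsf22, Tnfrsf23, Tnfrsf25 and Tnfrsf19 have filled points only, while Ltbr, Tnfrsf26 and Tnfrsf11b have open ones, and no point lies on the other side of 0 from its bar.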

How the data were processed

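Raw read counts per Ensembl gene were deposited for each library, as whole numbers with no correction for gene length. The submitters' processing notes name STAR 2.6.0c, HTSeq, DESeq2 and mm10 (GRCm38). What each tool did, the annotation release and the strand setting are not given in the sources read. Per the labels' protocols, libraries were made from total RNA with a stranded mRNA kit. Samples were grouped by title. Symbols and positions came from GENCODE M21 (GRCm38) for 54042 of 54109 IDs. One receptor gene is not reported here.

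Genes were filtered with filterByExpr (minimum count 10), scaled by TMM and tested with the quasi-likelihood F test of edgeR 4.0.16 (R 4.3.3), two-sided, on genotype alone with all 6 libraries, and adjusted over all tested genes at a threshold of 0.05. The labels call the cultures biological replicates, but whether they are independent clones is not given, so p-values measure the spread between these cultures. Between replicates, chi-square per degree of freedom was at least 27.7, so none were the same library. The same fit was first tested on simulated counts. Alternatives were DESeq2 size factors, library size alone, no filter, a filter at a mean of 5 CPM, the DESeq2 1.42.0 Wald test, limma-voom (limma 3.58.1), a replicate block, removed chromosome medians and leaving out each library. The members and lists were chosen with earlier results of these data known. Named genes were all members and, of each other list, up to 6 with the lowest adjusted p, up to 2 against the majority direction, and Fas, Fasl, Eda, Eda2r and Ngfr. Traf1, Mlkl, Tradd, Fadd, Ripk1, the remaining TRAF genes, Ptgs2, Sod2, Ccl2, Ccl5, Cxcl2, Cxcl5, Cxcl10 and Csf2 fall outside that rule and were named after their values were seen. The SE is the log2 fold change over the square root of F. Folds against 0 reads use a floor of 3 counts over the group. Ratios with 1 to 3 reads have an exact 95% interval. Intervals and floors cover counting error only, as reads were not tied to single molecules by identifiers.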

Additional observations from a re-analysis of the deposited data

How the results depend on the processing

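The number of called members was 8, and lay between 5 and 8 with a library left out. A filter at a mean of 5 CPM left 4, where fewer members are tested. The other alternatives kept it within 1.5 times. For all genes the number was 4939, and between 2869 (without control replicate 3) and 4681 with a library left out. Signalling genes called went from 12 to between 6 and 12, and NF-kB targets from 9 to between 4 and 10. The SOX motif stood in 9 windows and its longer form (AACAAAG or AACAATG) in 1. Signs turned for 3 members near 0. Tnfsf13b, at -0.01, became 0.04 with library size alone and ran from -0.22 to 0.14 with a library left out (0.14 without control replicate 2 or Sox10ko replicate 2, 0.01 without control replicate 3). Tnfrsf1a, at 0.01, became -0.03 with no filter and -0.08 with chromosome medians removed, and ran from -0.06 (without control replicate 1 or Sox10ko replicate 3) to 0.07. Tnfrsf13c, at -0.14, ran from -0.34 to 0.06 with a library left out (0.05 without control replicate 1, 0.06 without Sox10ko replicate 1). The cause of these shifts was not tested. Over the named genes and the alternatives, 443 values kept direction and call, 26 lost the call, 10 gained it and 10 changed sign. Replicate numbers did not pair the samples: same-numbered libraries had deviations correlated at -0.214, -0.0997 and 0.0738 over genes. With the replicate number as a block, 3537 genes, 6 members (without Ltbr, adjusted p = 0.0814, and Tnfrsf26, 0.0834), 6 signalling genes and 4 NF-kB targets were called. The 22 untested members had too few reads for the test, and the reason was not tested.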
